A study of Mus musculus with 6 samples.

Results

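The closely paired sites examined here were 175 of the 6739 genomic sites (2.60%) in the authors' deposited comparison of UTX binding, chosen by position alone: a site belonged to the set when another listed site on the same chromosome started within 1500 bp of its own start. They formed 83 runs of 2 sites and 3 runs of 3 sites, which gave 89 pairs of neighbouring sites. Within a pair, the site with the lower coordinate is called the left site and the other the right site. The questions asked of them were whether the 2 sites of a pair carried the same gene symbol and how closely their UTX signal in wild-type cells agreed. The assay was CUT&Tag, in which an antibody, here one that recognises UTX, tethers a transposase, which cuts and tags the DNA near the bound protein, so that reads pile up where the protein sits.

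UTX, encoded by Kdm6a on the X chromosome, is a demethylase that removes methyl groups from lysine 27 of histone H3, a mark of silenced genes. It also works as a member of the MLL3/MLL4 complexes, which methylate lysine 4 of histone H3 at enhancers and promoters. Active promoters commonly have a stretch of open DNA at the gene start flanked by nucleosomes on either side, and proteins of open chromatin can therefore give signal at more than 1 place around a single promoter.

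The cells were CD8+ T cells sorted as Ly108+ and CXCR6- from the pancreatic lymph node. All 6 samples came from mice carrying the NY8.3 T cell receptor transgene on the NOD background, a strain prone to autoimmune diabetes. The WT group (3 samples) was NOD.NY8.3, and the UTX-deficient group (3 samples, genotype label UTX_knock) was UTXTCD.NY8.3, in which UTX was deleted in T cells. The sources used here do not give the driver of the deletion, the animals' age or whether a sample was 1 mouse or a pool. The p-values therefore rest on the spread between these samples, which may be technical, and limma pools that spread over sites or pairs. The IgG control named in the protocol was not used here.

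The deposited table gives group values, from which whole reads per library were recovered (6736 of the 6739 sites in WT, including all 175 close sites), with libraries known only by group and depth. Set against a mean library at 1, WT depths were 1.28, 0.916 and 0.792, while those of the UTX-deficient samples were 1.93, 1.07 and 0.00577. The shallowest of these was thus nearly empty and had 0 reads in the close sites. Its 0 says little, because 1 read there was worth 173 normalized reads, and results that use the UTX-deficient group are given with and without it. At Kdm6a itself, which has a single site that is not part of a close pair, there were 65, 48 and 35 reads in WT against 8, 12 and 0 where UTX was deleted. Reads in the close sites came to 9474, 7944 and 5631 in the WT libraries and 444, 785 and 0 in the UTX-deficient libraries.

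The promoters of Klf13, Junb, Dnaja1 and Pym1 are shown. They come from the 5 pairs with a shared symbol and the highest mean WT signal that met 1 condition. A 300-base promoter window of the gene had to overlap a site of the pair by at least 200 bp. Tmc6 was also among the 5 and is not printed, and its start site was the stronger of its pair. In each of the promoters shown, 1 of the 2 sites lies on the gene start. Such a start site was found in 26 of the 59 pairs with a shared symbol and a known start. At the promoters shown, the centre of the other site lay 1244 to 1370 bp from the start. The start site was the stronger of its pair at Klf13 and Dnaja1, the weaker at Pym1, and not distinguishable from its partner at Junb. The 250 bases before each start are printed from RefSeq (GRCm38.p6, the assembly of mm10), 5′ to 3′ on the gene's strand. Matches to the searched motifs that lie wholly within the printed bases are in capitals. They lie at chr7:63938916-63939165 (minus strand), chr8:84978749-84978998 (minus strand), chr4:40722218-40722467 (plus strand) and chr10:128747629-128747878 (plus strand).
Klf13: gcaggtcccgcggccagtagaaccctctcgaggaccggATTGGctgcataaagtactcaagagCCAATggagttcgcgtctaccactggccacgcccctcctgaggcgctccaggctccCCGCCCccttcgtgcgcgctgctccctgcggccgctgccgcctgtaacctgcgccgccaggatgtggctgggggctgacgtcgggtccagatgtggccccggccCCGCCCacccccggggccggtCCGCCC
Junb: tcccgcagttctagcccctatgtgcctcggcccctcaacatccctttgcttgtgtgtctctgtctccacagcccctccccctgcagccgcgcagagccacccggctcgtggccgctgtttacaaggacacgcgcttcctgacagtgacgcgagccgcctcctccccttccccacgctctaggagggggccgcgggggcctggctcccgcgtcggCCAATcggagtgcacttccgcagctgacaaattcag
Dnaja1: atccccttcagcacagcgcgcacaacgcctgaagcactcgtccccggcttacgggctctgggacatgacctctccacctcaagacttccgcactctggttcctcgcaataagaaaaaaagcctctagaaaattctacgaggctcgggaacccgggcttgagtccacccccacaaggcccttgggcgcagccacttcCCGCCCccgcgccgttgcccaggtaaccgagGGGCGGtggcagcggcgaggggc
Pym1: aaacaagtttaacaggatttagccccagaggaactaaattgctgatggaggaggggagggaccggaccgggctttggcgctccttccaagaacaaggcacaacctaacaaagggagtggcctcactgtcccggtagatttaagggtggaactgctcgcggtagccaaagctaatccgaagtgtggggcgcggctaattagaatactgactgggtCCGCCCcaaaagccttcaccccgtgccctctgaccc

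The motifs were searched on both strands. Overlapping matches would each be counted, but none overlapped in the promoters shown. In the full window of 300 bases, which adds the first 50 bases of the gene, Klf13 held 3 GC boxes and 2 CCAAT boxes, and Dnaja1 held 3 GC boxes and 1 ETS core. At Dnaja1, 1 of the GC boxes began at base -4 from the start and ran across it, so it is not in capitals. Junb held 1 CCAAT box and 1 match to the letters of the TATA box, and Pym1 held 1 GC box. The TATA match at Junb began at the first base of the gene, and so lay outside the printed bases and not upstream of the start. Of 32851 promoter windows of this length, 3013 overlapped a UTX site by at least 200 bp, and 54, from 47 genes, overlapped a close site. The GC box (GGGCGG), which factors of the SP and KLF families read, was present in 35.7% of all windows, 81.2% of those in a UTX site and 74.1% of those in a close site. In the same order, the box read by NF-Y (CCAAT) was present in 37.4%, 50.5% and 42.6%. The core of ETS factor motifs (CCGGAA) was present in 14.9%, 33.2% and 29.6%. Cores of RUNX motifs (TGTGGT) were found in 16.8%, 12.1% and 5.56%, and the TATA box (TATAAA) in 13.6%, 4.15% and 5.56%. The site of AP-1 (TGANTCA) was found in 7.81% and 3.68%, and in 0 of the 54 windows in a close site, which allows a share of up to 5.56%. The median GC content was 52.7% over all windows, 64.3% in a UTX site and 64.0% in a close site, so promoters under close sites shared the GC-rich base composition of promoters under UTX sites in general.

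The 2 sites of a pair carried the same gene symbol in 81 of 89 pairs, or 91.0% (exact Clopper-Pearson 95% interval 83.1% to 96.0%, counting error only). Symbols in the authors' deposited table were assigned to each site, and neighbouring sites usually have the same gene nearby, so part of this sharing follows from the distance itself. Starts within pairs were 677 to 1476 bp apart, with a median of 1144 bp, and since sites were 401 bp wide no pair overlapped. In 22 of the pairs the distance was at most 1000 bp. The close sites belonged to 94 of the 5237 symbols in the table. For 37 of these genes the close pair was all the gene had, and 42 had further sites as well. Among the 5143 genes with no close site, 82.6% had a single site. A gene with a close pair of its own has at least 2 sites by the rule, so this difference is fixed in advance. In the whole table, 975 genes had 2 or more sites.

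The authors' WT signal, the log2 of the mean normalized read count over the WT libraries, agreed moderately within pairs. The 2 sites differed by a median of 0.48 on the log2 scale, which is 1.40-fold, with quartiles of 0.30 and 0.78. The difference was under 1 log2 unit, a doubling, in 76 of 89 pairs (85.4%) and under 0.5 in 47. It reached 1 or more in 13 pairs, up to 1.91 (3.76-fold). Over the 89 pairs the WT signal of the left site correlated with that of the right site with a Pearson r of 0.51 and a Spearman rho of 0.53. Both sites of a pair share their libraries and their surroundings, so this is a description of the pairs and not a test. For scale, the WT signal had an SD of 0.866 over all 6739 sites. Pairs with the same symbol (median difference 0.48) and pairs with different symbols (0.51, 8 pairs) differed in WT signal to a similar degree.

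**Figure D1:**
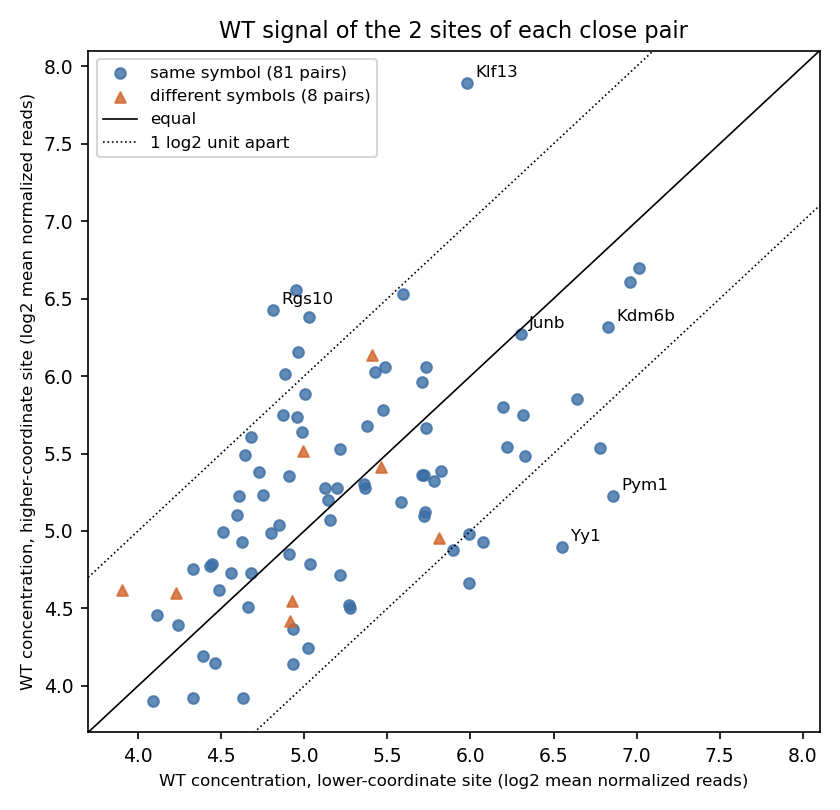
The authors' WT signal, or concentration (log2 mean normalized reads), of the left site of each close pair on the horizontal axis and of the right site on the vertical axis, with 1 point per pair for 81 pairs sharing a symbol and 8 that do not. Most points lie within 1 log2 unit of the line of equality, and the farthest is Klf13 at 5.98 and 7.89.

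Neighbouring sites farther apart were compared in the same way. Sites 1.5 to 3 kb apart (109 pairs) shared a symbol in 89.0% and differed by a median of 0.48 with r = 0.48, and sites 3 to 5 kb apart (134 pairs) shared a symbol in 76.9% and differed by 0.46 with r = 0.58. From 5 to 10 kb (511 pairs) the values were 63.4%, 0.75 and 0.18. Between 10 and 50 kb (2005 pairs) they were 33.0%, 0.76 and 0.05, and beyond 50 kb (3868 pairs) they were 5.84%, 0.72 and -0.00. The agreement of WT signal seen within 1.5 kb was therefore also present up to 5 kb and was lower beyond that. Within the 1.5 kb limit the difference changed little with distance (Spearman rho 0.14 over 89 pairs). Just inside the limit lay Yy1, at 1476 bp with WT signals of 6.55 and 4.90. The first pairs outside it were Btbd19 and Ccl5, both at 1532 bp, with WT signals of 5.50 and 5.05 and of 4.50 and 3.83.

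**Figure D2:**
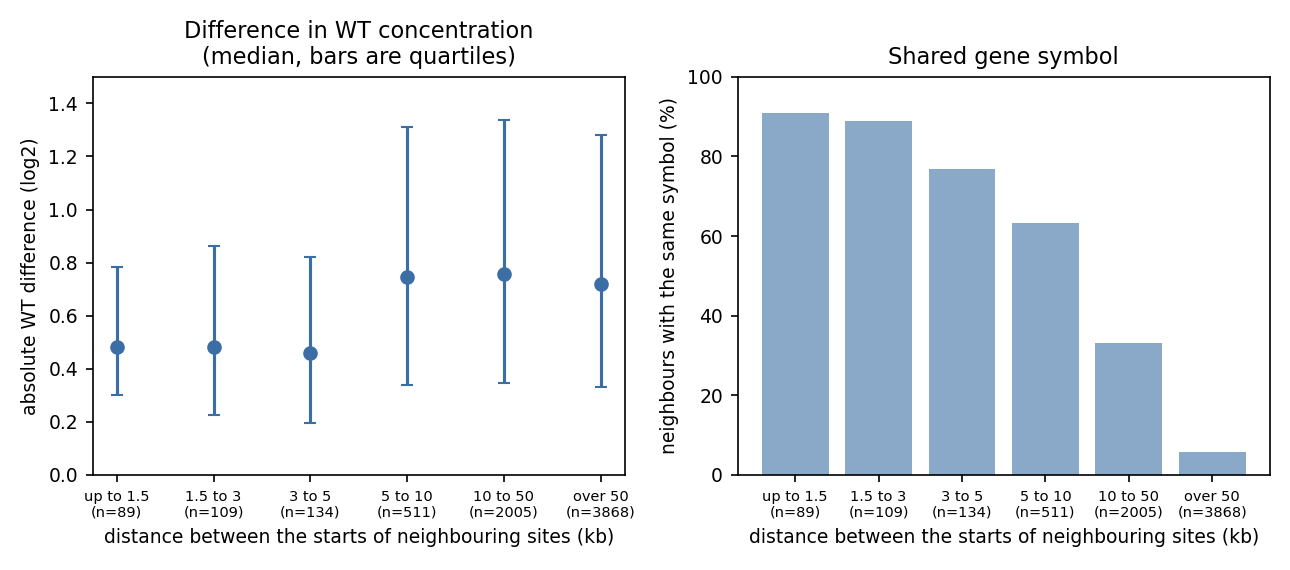
Neighbouring sites grouped by the distance between their starts (horizontal axis), with the absolute difference in WT concentration, the authors' WT signal, in log2 units on the left (points are medians, bars are quartiles) and the percentage sharing a gene symbol on the right. The share with a common symbol falls from 91.0% to 5.84% across the bins, and the median difference is 0.46 to 0.48 up to 5 kb and 0.72 to 0.76 beyond.

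The 2 sites of a pair are read in the same library, so their ratio within each WT library does not depend on its depth. By limma on these ratios (reads + 1), fitted and adjusted over all 6710 pairs of neighbouring sites with recovered reads, the 2 sites differed in 45 of the 89 close pairs (50.6%). Over all neighbouring sites at any distance, 63.8% differed, and in bins of distance the share was 56.0% at 1.5 to 3 kb, 53.7% at 3 to 5 kb and 65.3% at 5 to 10 kb. Called differences in close pairs had a median of 0.76 and were at least 0.31 on the log2 scale. In the other 44 pairs the median difference was 0.28 with a median SE of 0.22, so differences of that size were not detectable with 3 libraries. The same site was the higher one in all 3 WT libraries in 59 of 89 close pairs (66.3%), against 73.6% of all neighbouring sites. Within a single WT library the median absolute log2 ratio of the close pairs was 0.53, 0.50 and 0.56, while over all neighbouring sites it was 0.73, 0.74 and 0.74. Of the 81 pairs with a shared symbol 41 differed, as did 4 of the 8 pairs with different symbols. In this fit, limma draws the variance of each pair toward a trend over all neighbouring sites. The SE and p of a pair thus rest largely on that pooled spread and less on its own 3 ratios. At Klf13 the SD of the 3 ratios was 0.077 and the SE 0.12, and at the first step of Slc16a5 they were 0.89 and 0.23.

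Klf13, a zinc finger transcription factor of the Kruppel-like family, held the pair with the highest WT signal and the largest difference. Its right site (chr7:63938878-63939278), on the gene start, held 287, 243 and 176 reads in the WT libraries. Its left site (chr7:63937414-63937814), whose centre lay 1301 bp downstream of the start within the gene, held 76, 68 and 44 reads. The right site was higher in every WT library, by 1.90 ± 0.12 on the log2 scale (SE, n = 3; limma adjusted p = 2.63e-31). In UTX-deficient cells the 2 deeper libraries held 6 and 21 reads at the right site and 3 and 8 at the left site, so the right site was again the higher one.

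Junb, which encodes a subunit of the AP-1 transcription factor, held the pair with the smallest difference in the authors' WT signal (6.30 and 6.27). The site on its start (chr8:84978642-84979042) held 110, 77 and 53 reads in WT, and the site 1244 bp upstream (chr8:84979792-84980192) held 123, 70 and 47. Neither site was the higher one throughout, and the log2 ratio was -0.05 ± 0.15 (SE, n = 3; limma adjusted p = 0.797). The left site took 50.0% of the pair's WT reads (exact 95% interval 45.4% to 54.6%, counting error only).

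Kdm6b, the paralogue of UTX that removes the same histone mark, had a strong pair within the gene. Its left site (chr11:69409434-69409834) held 158, 118 and 70 reads in WT, and its right site (chr11:69410652-69411052) held 86, 87 and 61. The left site was the higher in each WT library, by 0.50 ± 0.14 on the log2 scale (SE, n = 3; limma adjusted p = 0.00112). That call was lost without the deepest WT library, and the adjusted p ranged from 8.77e-05 to 0.15 over the 7 alternatives. In the 2 deeper UTX-deficient libraries the left site held 1 and 8 reads and the right site 3 and 4.

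Other pairs with high WT signal also held a stronger and a weaker site. At Tmc6, a transmembrane channel-like gene, the site on the start held 126, 103 and 94 reads and the site 1554 bp upstream held 55, 52 and 31. At Dnaja1, a co-chaperone of HSP70, the site on the start held 127, 96 and 58 reads and the site 1370 bp upstream held 67, 44 and 35. The start site was higher by 1.24 ± 0.16 at Tmc6 (adjusted p = 3.26e-12) and by 0.91 ± 0.16 at Dnaja1 (adjusted p = 2.73e-07) on the log2 scale (SE, n = 3), in every WT library. Arl5c, a small GTPase-like gene, had both of its sites outside the gene, with 119, 106 and 72 reads against 79, 62 and 35 (adjusted p = 2.52e-06).

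The pair with the shortest distance, 677 bp, lay on an unplaced contig (chrUn_JH584304:58761-59161 and chrUn_JH584304:59438-59838) and carried the symbol Pisd-ps3, a pseudogene of phosphatidylserine decarboxylase. Its sites held 141, 106 and 117 and 102, 94 and 87 reads in WT. They also held 32 and 44 and 20 and 26 reads in the deeper UTX-deficient libraries, the most of all close sites. Reads of near-identical copies may be shared between such sequences, so the values at this pair are uncertain. The difference within it (adjusted p = 0.0139) was lost without the deepest or without the shallowest WT library (adjusted p 0.0117 to 0.142 over the alternatives). Leaving out this pair changed the share of pairs with a common symbol to 90.9%.

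After Klf13, the largest differences within pairs were at Yy1, Pym1, Rgs10 and Scd2. Yy1, a zinc finger factor that binds promoters and enhancers, had a site centred 381 bp upstream of its start with 115, 87 and 76 reads in WT and another 1095 bp downstream with 52, 25 and 17. Its upstream site was 3.14-fold higher in the authors' WT signal (limma adjusted p = 1.31e-15). Pym1, which helps to remove exon junction complexes from mRNA, had the reverse of the Klf13 pattern: the site on its start held 54, 41 and 20 reads, and the site 1366 bp upstream held 141, 117 and 87 (adjusted p = 1.4e-17). Rgs10, a regulator of G protein signalling, had a pair inside the gene and over 30 kb from its start, with 40, 30 and 16 against 115, 87 and 58 reads (adjusted p = 1.85e-14). Scd2, a fatty acid desaturase, had a pair outside the gene with 41, 30 and 22 against 128, 100 and 58 reads (adjusted p = 9.95e-15). In all 4 pairs the same site was the higher one in every WT library, and the groups of reads did not overlap. These pairs, like Klf13, were picked for the size of their difference in the same WT libraries. The constant order and the small adjusted p-values largely follow from that choice and are not further evidence.

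Besides Junb and pairs described further on (Dedd2 with Zfp526, and a step at Ier2), the smallest differences were at Slc38a2, an amino acid transporter, with WT signals of 4.68 and 4.73, and at Abi3, an actin regulator of the WAVE complex, with 5.14 and 5.20. Neither was called (adjusted p = 0.877 and 0.911), an outcome that their choice for a small difference made likely, as it did at Junb. Among the widest pairs, both 1469 bp apart, Hmg20b, an HMG-box gene, held 70, 59 and 36 against 39, 46 and 31 reads in WT, with the higher site on the gene start. This difference (adjusted p = 0.0241) was lost without the deepest or without the second WT library (adjusted p 0.0111 to 0.324 over the alternatives). The transcript model C030018K13Rik held 63, 51 and 43 against 49, 58 and 40 reads (adjusted p = 0.671).

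**Figure D3:**
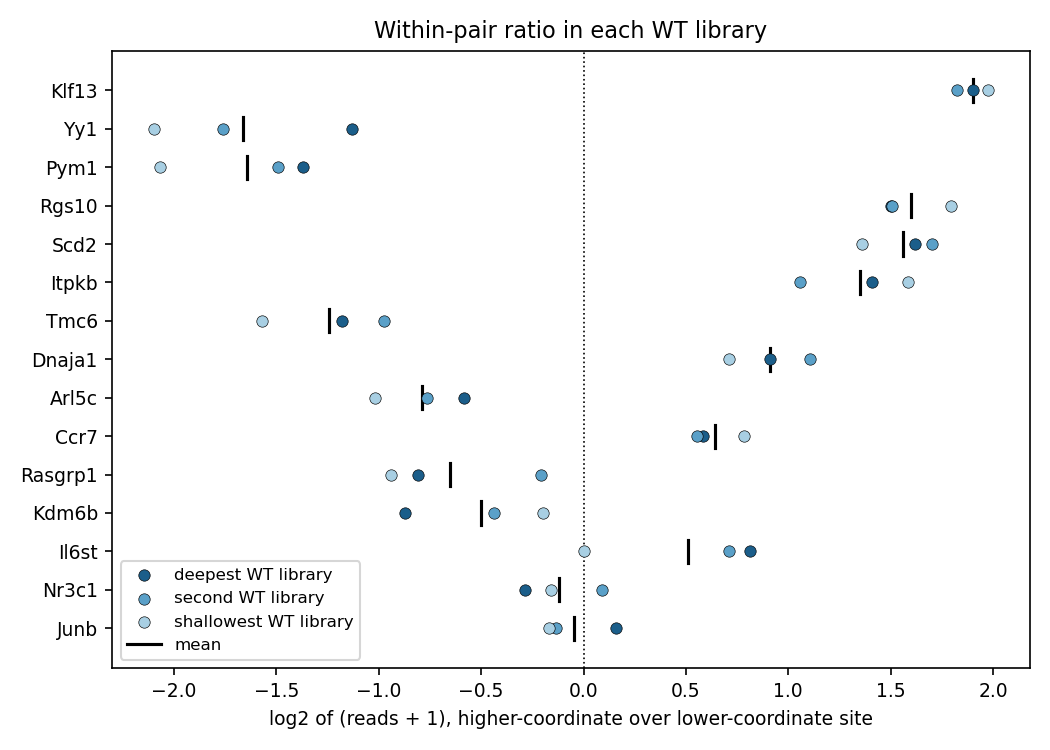
The log2 ratio of the right to the left site, (reads + 1) over (reads + 1), in each of the 3 WT libraries (points, shaded by depth, with a black mark at their mean) for close pairs described in the text. The 3 points of Klf13 lie close together around 1.90, and those of Junb lie on both sides of 0.

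Pairs at other genes of T cell function were called at Itpkb, Rasgrp1, Ccr7 and Il6st and not at Nr3c1, beside 50.6% of all close pairs. Itpkb, a kinase of inositol trisphosphate needed for T cell development, held 43, 37 and 19 reads at its left site and 116, 78 and 59 at its right site, both inside the gene (1.35 ± 0.18 on the log2 scale, SE, n = 3; adjusted p = 1.68e-11). Rasgrp1, which activates RAS below the T cell receptor, had a pair more than 74 kb upstream of the gene with 55, 51 and 47 against 31, 44 and 24 reads (adjusted p = 0.00215). Ccr7, the chemokine receptor that guides T cells into lymph nodes, had a pair outside the gene with 31, 31 and 17 against 47, 46 and 30 reads (adjusted p = 0.00531). Il6st, the signalling chain shared by receptors of the IL-6 family, had a pair 783 bp apart, about 45 kb upstream of the gene, with 28, 21 and 36 against 50, 35 and 36 reads. That difference (adjusted p = 0.0275) rested on the deepest and the second WT library, in the absence of either of which it was lost (adjusted p 0.00687 to 0.265 over the alternatives). It was the single called pair whose order did not hold in all 3 WT libraries. Nr3c1, the glucocorticoid receptor, had evenly matched sites with 49, 46 and 28 against 40, 49 and 25 reads (adjusted p = 0.618).

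Pairs at 2 genes of the BCL2 family were not called. Mcl1, an inhibitor of apoptosis, held 28, 18 and 15 reads at the site on its start and 20, 17 and 9 at a site 728 bp away (adjusted p = 0.18). Bbc3, the BH3-only activator of apoptosis also known as PUMA, held 48, 34 and 29 against 49, 41 and 44 reads (adjusted p = 0.183).

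Over the gene lists drawn up for this tissue, 215 of the 310 genes had a UTX site and 12 had a close site. That is 5.58% of listed genes with a site, beside 1.79% of all 5237 symbols. They included Klf13 and Nr3c1 of 23 progenitor and quiescence factors with a site, Junb of 27 effector and activation factors, Itpkb and Rasgrp1 of 30 T cell receptor genes, Ccr7 of 15 homing genes and Il6st of 23 cytokine signalling genes. Kdm2b and Kdm6b were members among 36 chromatin modifiers, and Bbc3 and Mcl1 among 24 survival and cell cycle genes. No close site carried the symbol of a costimulatory or inhibitory receptor (7 genes with a site), an effector molecule (8) or a marker of another cell type (8 of 33 such genes had a site). The T cell identity of the sample is a matter of expression, which was not measured here.

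The runs of 3 sites were at 3 genes. At Dusp2, a phosphatase that switches off MAP kinases, the sites started at chr2:127334090, chr2:127335025 and chr2:127335804, with centres 1869, 934 and 155 bp upstream of the gene start. They held 112, 84 and 49 reads, 59, 52 and 25 reads, and 82, 69 and 48 reads in the WT libraries. The middle site was the lowest in each library (adjusted p = 4.66e-06 against the first and 0.00192 against the third). At Ier2, an immediate early gene, the sites held 64, 60 and 34, then 54, 35 and 34, then 48, 43 and 27 reads, and neither step was called (adjusted p = 0.11 and 0.786). At Slc16a5, of the monocarboxylate transporter family, the sites held 21, 26 and 33, then 51, 27 and 23, then 25, 28 and 26 reads (adjusted p = 0.31 and 0.309). The first step at Ier2 and at Slc16a5 passed the threshold without the shallowest WT library (adjusted p as low as 0.0333 and 0.0278, and as high as 0.671 and 0.516, over the alternatives).

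Different symbols were carried by 8 pairs. At Zc3h10 and Rpl41, a zinc finger gene and a ribosomal protein gene, each site lay on the start of its own gene, and the sites held 63, 64 and 39 against 40, 30 and 23 reads in WT (adjusted p = 0.00011). Dedd2 and Zfp526 likewise had a site on each start, with 59, 44 and 30 against 45, 50 and 30 reads (adjusted p = 0.776). The sites at Zbtb11 and its antisense transcript Zbtb11os1 also each covered a start, and their difference (adjusted p = 0.0571) passed the threshold without the shallowest WT library (adjusted p 0.0467 to 0.605 over the alternatives). At Gse1 and Mir7687 the sites held 40, 30 and 25 against 46, 57 and 31 reads, and the difference (adjusted p = 0.0359) was lost without the second WT library (adjusted p 0.0316 to 0.404 over the alternatives). Gpr18 and Ubac2 did not differ past the threshold (adjusted p = 0.134). The remaining pairs were A930024E05Rik with Kdm2b (adjusted p = 9.36e-05), Lrrc24 with C030006K11Rik (0.011) and Bdh1 with Gm15743 (0.219).

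Relative to gene starts, close sites lay differently from the rest. Of the 130 close sites with a start of their gene in the promoter table, 41 (31.5%) covered a start, against 2423 of 5265 other sites (46.0%). The median distance from the centre to the nearest start of the gene was 920 bp, against 240 bp for the others, and 71.5% lay within 2 kb, against 63.7%. Pairing itself limits how many members can cover a start, since 2 separate sites cannot usually cover the same one, and no test was made. Of the 59 pairs with a shared symbol and such a start, 26 had 1 site on the start, and 2 (Psd4 and Atxn2l) had both sites on different starts of the gene. In 9 more pairs, among them Yy1, Stat6 and Larp1, the sites straddled a start that neither covered. The other 22 pairs lay to 1 side of the nearest start, 15 of them more than 10 kb away.

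In the 26 pairs with 1 site on the start, the start site had the higher WT signal in 18, with a median difference of 0.42 log2 units in its favour. It was called higher in 10, called lower in 4 (Pym1, Sart1, Fmc1 and Lsm14a) and not called in 12. The same count was not made for neighbouring sites farther apart, so this lead is not shown to be particular to close pairs. The partner was upstream of the start in 17 pairs and downstream in 9, at 673 to 1554 bp from the nearest start of the gene. Upstream partners were called weaker in 8 pairs and stronger in 3, and downstream partners in 2 and 1. Sart1, a splicing factor, and Lsm14a, a protein of mRNA storage granules, thus resembled Pym1, while Klf13, Dnaja1 and Tmc6 were among the 10. The 22 pairs that neither covered nor straddled a start, whose nearer site was centred 209 to 467195 bp from one, differed by a median of 0.42 (11 called), and the 37 that did by 0.57 (20 called).

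**Figure D4:**
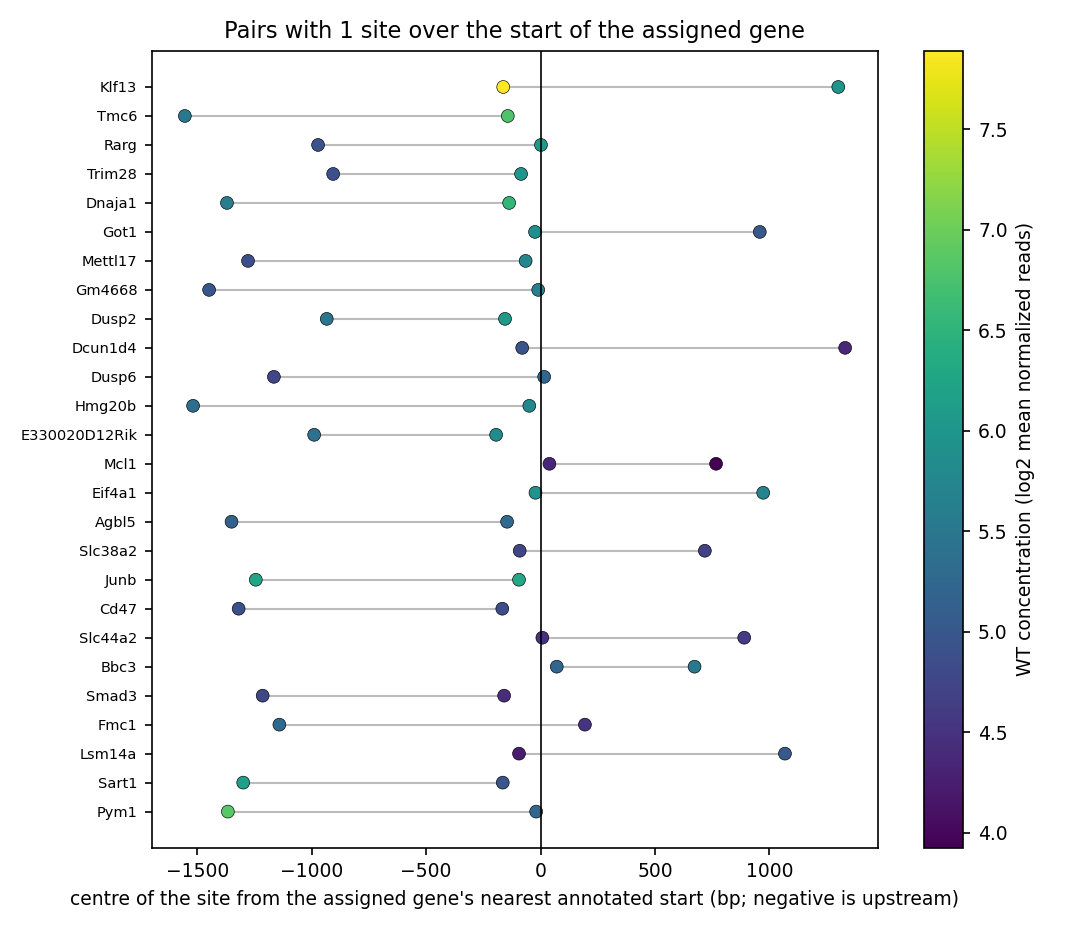
The 26 close pairs in which 1 site covers a start of its gene, drawn by the distance of each site's centre from the nearest annotated start of the gene (bp, negative upstream) and coloured by the WT signal of each site, from the pair with the largest lead of the start site (top) to the largest lead of its partner (bottom). The partner lies upstream in 17 pairs and downstream in 9, between 673 and 1554 bp from its nearest start.

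Signal was lower in the UTX-deficient cells at all 175 close sites. This is the direction of 99.7% of all sites in the authors' deposited table, so it does not set them apart. Every listed site had already been called different between the groups by the authors, in these same samples. The outcomes of the permutation test and of limma given here were therefore largely fixed by that selection. Neither is independent evidence of a loss, and the values describe its size at sites chosen for it. The mean normalized reads over the close sites were 42.3, 49.6 and 40.6 in the WT libraries (44.2 ± 4.74, SD, n = 3) and 1.31, 4.18 and 0 in the UTX-deficient libraries (1.83 ± 2.14, SD, n = 3). The groups did not overlap, but a two-sided exact permutation test of 3 against 3 libraries could give no p below the 0.1 it gave. Without the near-empty library the WT mean was 16.1-fold higher. By limma on log2(normalized reads + 1), all 175 close sites were lower, against 99.7% of the 6736 sites tested, with a median log2 difference of -4.22, or -3.71 without the near-empty library. The exception under an alternative was the left Pisd-ps3 site, which lost the call without any 1 of the WT libraries (adjusted p 0.0779 to 0.0871). Other sites that were higher in WT served as a comparison. Relative to them, the mean normalized reads at close sites were 1.04, 1.10 and 1.08 times as high in the WT libraries. In the 2 deeper UTX-deficient libraries they were 1.11 and 1.13 times as high.

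The size of the loss was less alike within pairs than the WT signal. In the authors' deposited table the log2 folds of the 2 sites differed by a median of 0.53, with a Pearson r of 0.35 over the 89 pairs. The median fold over close sites in that table was -3.66, from -5.49 at the first Dusp2 site to -2.01 at an Arhgap25 site, and for the other sites the median was -3.50. The Klf13 sites had folds of -3.83 and -4.06 and the Junb sites -3.80 and -3.82 in the authors' deposited table, whereas the Yy1 sites had -5.29 and -3.27. A fold at this depth rests on few reads in the UTX-deficient cells, with a median of 5 per close site over the 2 deeper libraries against 108 over the WT libraries. The signal in UTX-deficient cells stood at the floor value of the authors' deposited table in 33.1% of close sites and 37.8% of other sites. Where the 2 sites of a pair could be ordered in UTX-deficient cells, the stronger one in WT was also the stronger in 56 pairs and the weaker in 17, and 16 pairs were tied. No such count was made over all neighbouring sites, so it is not shown to be particular to close pairs.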

How the data were processed

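UTX CUT&Tag was measured in 3 WT and 3 UTX-deficient samples. Per the submitters' processing notes, the authors used Bowtie2, with cutadapt, SAMtools, Picard and FastQC, and MACS2 with DiffBind, on mm10, and no versions are given there. The deposited table holds, per the file headers, log2 mean normalized reads for each group, a log2 fold (negative where WT was higher), and the authors' p-value and FDR, and its listed sites all had an FDR under 0.05. Sites that did not change were not analysed here. Whole reads per library were recovered as the combination of reads that gives each group sum, which was tested on simulated data. They carry no replicate number. Recovered reads were normalized by relative depth and tested with limma 3.58.1 (R 4.3.3) on log2(normalized reads + 1), with Benjamini-Hochberg adjustment over all sites and a threshold of 0.05. Within pairs, the log2 ratio of the 2 sites was tested over the 3 WT libraries, with adjustment over all neighbouring sites and not over close pairs alone as first planned. Gene starts came from the RefSeq promoter table (GRCm38.p6), which gave a start for 5395 sites, and 6677 sites had a symbol matched to RefSeq. Exon and intron positions were not used here.

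Named pairs were the 8 with the highest mean WT signal, the 5 with the largest and the 5 with the smallest difference, up to 6 of the strongest with different symbols, the runs of 3, the 3 closest and the 3 widest pairs, the first ones outside the distance limit, and up to 3 per gene list. Gene models known by number were passed over except in the runs and the choices by distance. Further pairs with different symbols, and pairs named for where they lie relative to a start, were chosen after their values were seen. The members and lists were chosen with earlier results of these data known. Alternatives changed the distance limit, the FDR, the pseudocount, a filter on low reads and the libraries left out. Some named pairs are not reported here.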

Additional observations from a re-analysis of the deposited data

How the results depend on the processing

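The number of close sites, the share with a common symbol and the agreement of WT signal depend on the distance limit by construction. With a limit of 1000 bp there were 43 close sites, the median difference in WT signal was 0.38 and the median WT signal was 4.93, and with 2000 bp the median difference was 0.51. Leaving out 1 WT library gave 37 to 47 close pairs whose sites differed, and 31 of the 45 called with all libraries kept the call whichever one was left out. Adjustment over the close pairs alone, an alternative added after seeing the data, gave 46. Among 35 named pairs and 245 comparisons, 10 lost the call, 3 gained it and 7 changed sign, the last in pairs not called with all libraries. Over the WT libraries left out, the log2 ratios of those that changed sign were -0.0509 to 0.0942 at Abi3, -0.153 to 0.0121 at Junb, -0.225 to 0.647 and -0.475 to 0.11 at the steps of Slc16a5, -0.244 to 0.0614 at the second step of Ier2, -0.192 to 0.0903 at Dedd2 and Zfp526, and -0.229 to 0.0402 at C030018K13Rik. No paired analysis was possible because the recovered libraries carry no replicate number. Depth limits differences within weak pairs and all values of UTX-deficient cells.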

Other observations

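Close sites were spread over 19 chromosomes or contigs. No close site lay on chromosome 17 (0 of 388 sites) or the X chromosome (0 of 103 sites), beside 2.60% of all sites. The absence on chromosome 17 depends on the distance limit, since a pair at Tnfaip8l1 on that chromosome lay just outside it, at 1539 bp. The largest number was on chromosome 7 (22 of 539 sites), and chromosome 16 had 10 of 183. The unplaced contig of Pisd-ps3 had 2 of its 4 sites in a close pair.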
